A study of Mus musculus with 20 samples.

Results

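The genes described here build and remodel the collagen matrix of the liver or mark its stellate cells and their activated form. The set has 36 named genes, chosen by name from what they encode, while earlier results of these data were known. Of these genes 34 could be measured, out of 18193 genes on the array with a name of their own. Ctgf was found through its gene identifier, because the platform annotation lists it as Ccn2. Loxl2 shares its 2 probe sets with a second gene and Fbn1 had no probe set named for it, so neither is reported. Each gene is represented by 1 probe set, the one whose mean score across the 20 arrays was highest.

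Livers of male mice of the inbred strain C57BL/6J were measured, at an age of 8 weeks per the labels. One group of 10 mice ate a low-fat diet, with 10% of its energy from fat, and a second group of 10 ate a high-fat diet, with 45%. All mice had eaten a low-fat diet before the feeding period of 4 weeks, and all were fasted for 16 h before the livers were taken. Each array held RNA of the whole liver of 1 mouse, and other diet groups named in the study's design are not analysed here.

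Stellate cells lie between the hepatocytes and the sinusoids, store retinoids when at rest and are the main source of fibrillar collagen when they turn into contractile myofibroblasts. Transforming growth factor beta and platelet-derived growth factor drive that change, lysyl oxidases crosslink the collagen that is laid down, and matrix metalloproteinases and their tissue inhibitors set how fast it is removed. Collagen transcripts of the liver also come from portal fibroblasts, smooth muscle and endothelial cells. In whole liver, fewer cells of a type and less RNA per cell cannot be told apart.

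The deposited values are compressed by a different amount for each gene, so a difference between diets is not a fold change. Among the measured genes the SD of the deposited score within diets ran from 4.18e-06 for Fn1 to 0.0144 for Ctgf. Sizes are therefore given as standardised differences, the high-fat mean minus the low-fat mean in units of the SD within diets, with a 95% interval. Values of single mice are given on the same scale, where 0 is the mean of the low-fat mice of that gene and the difference is the mean of the high-fat mice (n = 10 per diet). Where a pair of SDs follows an interval, the first is that of the low-fat and the second that of the high-fat mice. Array medians ran from 6.56702 to 6.5672. All 9 measured hepatocyte markers lay above the median of all probe sets, as did 12 of 15 other stellate cell markers. So did 15 of 15 endothelial and 12 of 12 Kupffer cell and macrophage markers. Fewer did in other lists: 7 of 14 smooth muscle and portal fibroblast, 2 of 6 bile duct, 2 of 4 adipocyte and 4 of 6 blood cell markers. Of the 34 genes 30 lay above it, while Col1a1, Lox, Timp1 and Tgfb1 lay below it. Whether genes below it were detected was not tested. Of 24 poly-A control probe sets, which report RNA added to each sample during labelling, 10 had an unadjusted p of at most 0.05, all lower on the high-fat diet, while 0 of 64 controls passed after adjustment by limma.

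Among the 34 genes, Mmp14 fell on the high-fat diet and 0 rose. Mmp14 encodes a membrane-bound metalloproteinase that cuts collagen at the cell surface and activates the gelatinase Mmp2. The collagens, proteoglycans, growth factor genes and myofibroblast markers did not pass the test, although most of them had a higher mean on the high-fat diet. By limma, with p-values adjusted over all genes and a threshold of 0.05, 1 of 34 genes passed, beside 3.49% of all 18193 genes (1.71% higher and 1.78% lower). An unadjusted p of at most 0.05 was reached by 4 of the 34 genes, 3 higher and 1 lower, beside 17.0% of all genes (8.94% higher and 8.01% lower). The mean was higher on the high-fat diet for 27 of 34 genes and for 52.5% of all genes, and the median standardised difference was 0.42 in the set and 0.04 over all genes. After quantile normalisation 144 genes were called higher and 1344 lower, 13 of 33 genes of the set had a higher mean, and Lox and Loxl1 passed as lower in place of Mmp14. In that setting the median standardised difference was -0.14 in the set and -0.41 over the 17325 genes with a value. Genes of the set lay on both sides of -0.41, from -2.90 for Lox to 0.95 for Col14a1. Many of the 34 genes varied together from mouse to mouse, so these counts are not counts of independent observations.

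Because Mmp14 was the gene that passed and Tgfbi stood second by p-value, the 250 bases before the annotated start of each are shown, 5′ to 3′ on the plus strand, from RefSeq on assembly GRCm38.p6. Capitals mark GC boxes (GGGCGG or its reverse complement), the motif of Sp1-type factors. The windows are chr14:54431348-54431597 for Mmp14 and chr13:56609336-56609585 for Tgfbi, and no annotated gene overlaps either window.
Mmp14: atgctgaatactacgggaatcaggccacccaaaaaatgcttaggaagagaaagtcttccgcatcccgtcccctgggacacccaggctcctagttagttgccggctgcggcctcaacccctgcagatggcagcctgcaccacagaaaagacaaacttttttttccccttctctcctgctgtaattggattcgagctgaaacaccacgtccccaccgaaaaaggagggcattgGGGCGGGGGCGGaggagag
Tgfbi: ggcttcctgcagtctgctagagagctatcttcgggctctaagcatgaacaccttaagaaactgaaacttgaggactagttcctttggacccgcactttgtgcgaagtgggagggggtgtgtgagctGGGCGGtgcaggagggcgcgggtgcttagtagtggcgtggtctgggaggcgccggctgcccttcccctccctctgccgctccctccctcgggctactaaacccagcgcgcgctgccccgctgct
Mmp14 holds 2 adjoining GC boxes, whose first bases lie 19 and 13 bases before the start, and Tgfbi holds 1, 124 bases before it. Promoter entries were found for 23 of the 34 genes, in 25 windows, and a GC box stood in 15 of these (60.0%) against 32.7% of all 32851 windows of this length. The other motifs searched, on both strands, were CCAAT (28.0% of the windows of the set, 33.8% of all), TATAAA (16.0% and 12.4%), the AP-1 motif TGACTCA (8.00% and 4.46%) and the SMAD element CAGACA (24.0% and 17.1%). These matches describe the letters and show no binding.

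In the low-fat mice the standardised score of Mmp14 had a lowest value of -1.43, a median of -0.36 and a highest value of 2.39. In the high-fat mice it ran from -3.52 through a median of -1.90 to -0.61. All 10 high-fat mice lay below the low-fat median and 7 low-fat mice lay above every high-fat mouse, yet the groups overlapped, and when each high-fat mouse was set against each low-fat mouse, the former was higher in 5 of 100 pairings. The deposited score went from 8.24692 ± 0.000159 to 8.24666 ± 0.000121 (mean ± SD, n = 10 per diet). The standardised difference was -1.85 (95% interval -2.90 to -0.77, limma adjusted p = 0.0224). The other 2 probe sets of Mmp14 were also lower, at -0.51 (-1.40 to 0.39) and -0.49 (-1.38 to 0.40), and neither passed. The mean of the 3 probe sets gave -1.25 (limma adjusted p = 0.128), so the call did not hold on that measure. With the poly-A controls as a covariate it stood at -1.62 (limma adjusted p = 0.0900), and after quantile normalisation at -0.54 (limma adjusted p = 0.451). Leaving out any 1 mouse gave -2.09 to -1.75 with limma adjusted p-values from 0.0157 to 0.0426.

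**Figure D1:**
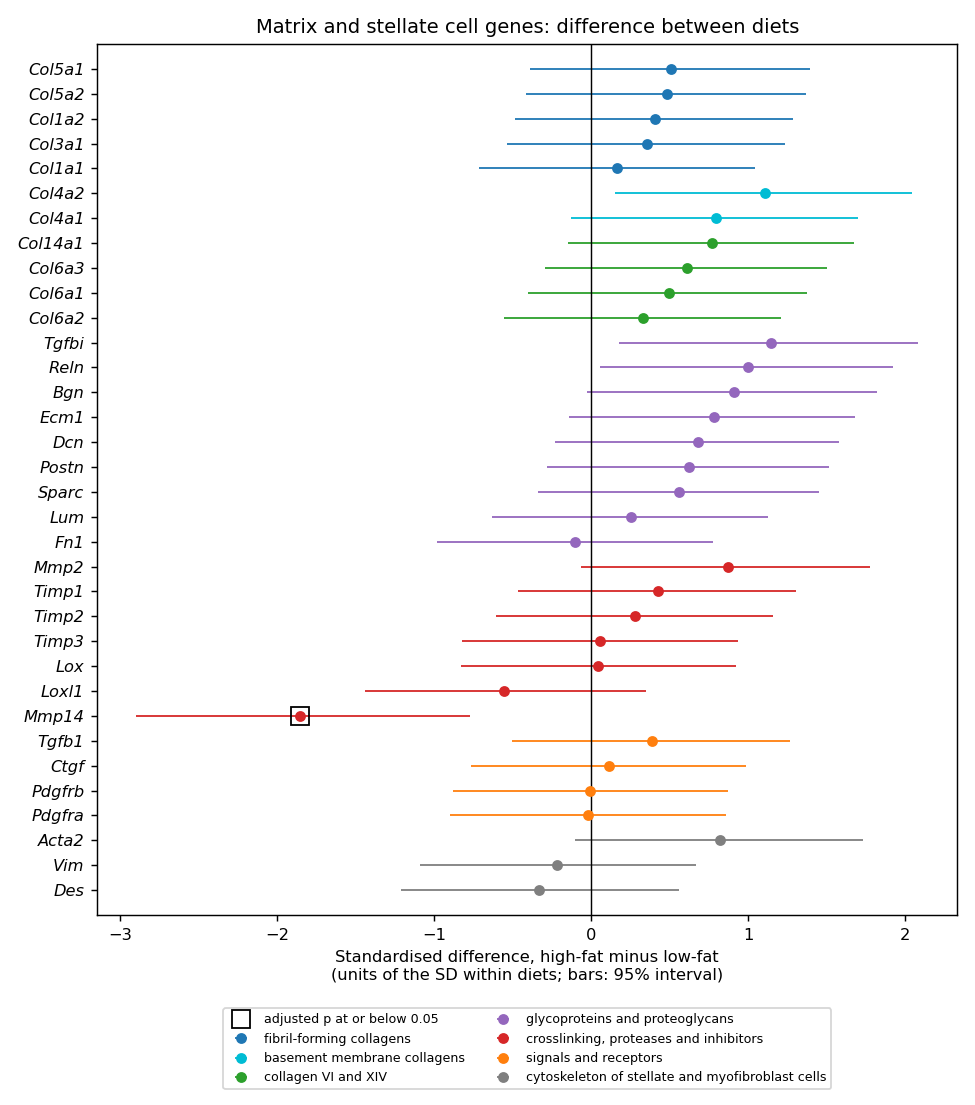
Standardised difference between diets (horizontal axis, SD units, with 95% intervals) for the 34 measured genes, coloured by role. The interval of Mmp14 (-2.90 to -0.77) lies below 0, those of Tgfbi, Col4a2 and Reln lie above 0 without passing the adjusted test, and all others include 0.

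Mmp2, the gelatinase of the set, did not share the direction of Mmp14. Its low-fat values ran from -1.50 through 0.04 to 1.08 and its high-fat values from -0.62 through 0.48 to 2.56, and the groups overlapped widely. The standardised difference was 0.87 (-0.06 to 1.78, SD 0.75 and 1.20, limma adjusted p = 0.328), while a second probe set gave -0.05. Within diets the scores of Mmp2 and Mmp14 had r = -0.61 over the 20 mice, a pair chosen after its value was seen.

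The inhibitors and crosslinking enzymes gave no call, and the mean scores of Timp1 and Lox lay below the median of all probe sets. Timp1, an inhibitor that is known to be induced in injured liver, ran from -1.92 through 0.09 to 1.42 in the low-fat mice and from -1.68 through 0.77 to 1.83 in the high-fat mice. Both diets covered nearly the same range, and the difference was 0.42 (-0.47 to 1.31, SD 1.03 and 0.97, limma adjusted p = 0.694). Timp2 stood at 0.28 (-0.61 to 1.16) and Timp3, which binds to the matrix, at 0.06 (-0.82 to 0.93). Timp2 and Timp3 are measured by 6 and 4 probe sets, and these did not share a direction, running from -0.80 to 1.32 and from -1.14 to 0.30. The lysyl oxidase gene Lox stood at 0.05 (-0.83 to 0.92) and its relative Loxl1 at -0.56 (-1.44 to 0.35).

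For the fibril-forming collagens, which make the fibres of scar tissue, 5 of 5 measured genes had a higher mean on the high-fat diet and 0 passed. After quantile normalisation 2 of 5 did, with Col1a1 at -1.20, Col1a2 at -0.14 and Col5a1 at -1.15. Col1a1 and Col1a2 encode the chains of type I collagen. Col1a1 ran from -1.46 through -0.18 to 1.73 in the low-fat mice and from -1.70 through 0.46 to 1.43 in the high-fat mice. The lowest mouse of all was a high-fat mouse and the highest a low-fat mouse, and the difference was 0.16 (-0.72 to 1.04, SD 1.04 and 0.96, limma adjusted p = 0.899). The mean score of Col1a1, 6.38, lay below the median of all probe sets. A second probe set of Col1a1 gave -0.49 (-1.38 to 0.40), and the mean of both gave -0.22. Col1a2 ran from -1.57 through 0.01 to 1.10 on the low-fat diet and from -1.15 through 0.63 to 2.18 on the high-fat diet. For Col1a2 2 high-fat mice lay above all low-fat mice, with a difference of 0.41 (-0.48 to 1.29, SD 0.76 and 1.20, limma adjusted p = 0.704). Col3a1, the chain of type III collagen, ran from -1.33 through -0.06 to 1.11 and from -1.33 through 0.17 to 2.40. The lower ends of the diets met, 3 high-fat mice lay above all low-fat mice, and the difference was 0.35 (-0.54 to 1.23, SD 0.76 and 1.20, limma adjusted p = 0.750). Col5a1 and Col5a2, whose chains start and limit the growth of fibrils, stood at 0.51 (-0.39 to 1.40) and 0.48 (-0.41 to 1.37). Each of these intervals spans 0 and reaches past 1 SD, so a moderate difference in either direction for Col1a1, or upward for the others, is within the error.

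**Figure D2:**
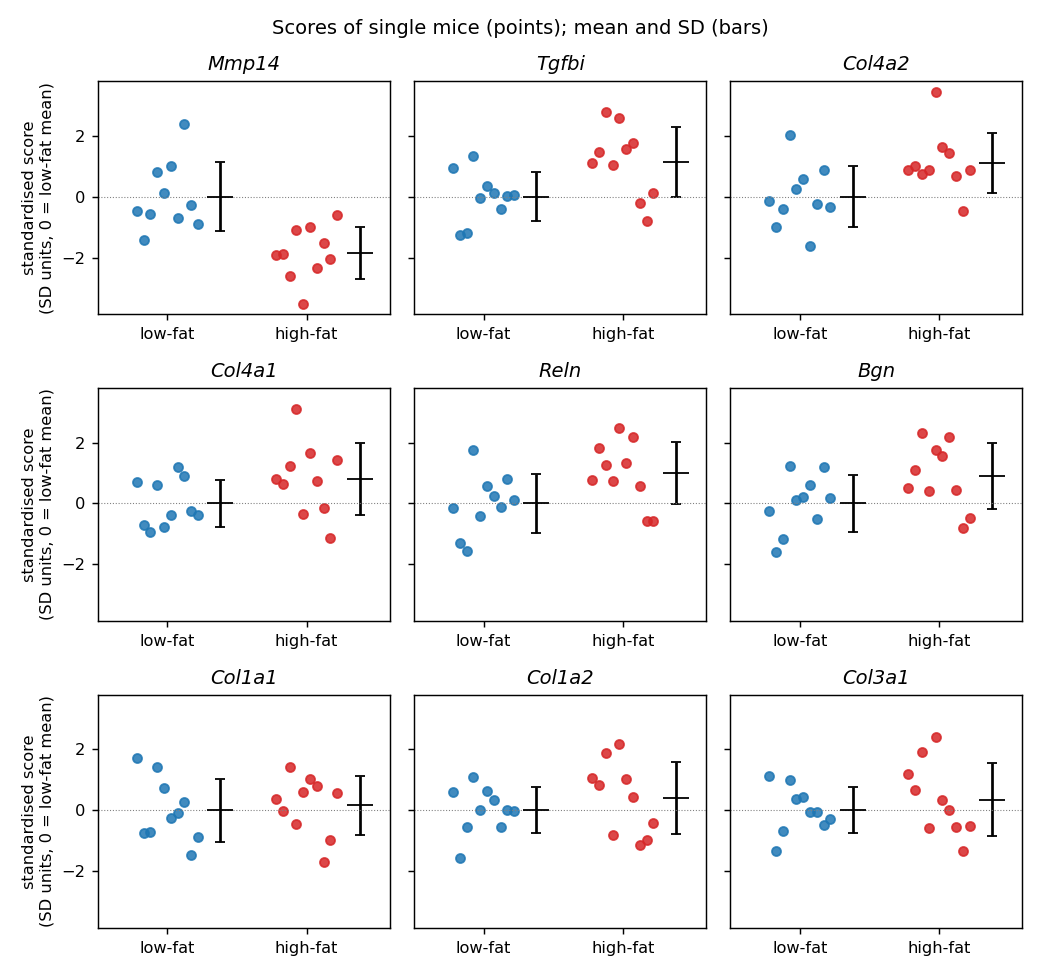
Standardised score of each mouse (points, SD units, 0 is the low-fat mean of the gene) for 9 genes, with the mean and SD of each diet as bars (n = 10). All 10 high-fat mice lie below the low-fat median for Mmp14, 5 high-fat mice lie above every low-fat mouse for Tgfbi, and the diets cover much the same range for Col1a1.

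Type IV collagen forms the sheet of basement membranes and lines capillary vessels, and its genes Col4a1 and Col4a2 both had a higher mean on the high-fat diet without passing. Col4a2 ran from -1.61 through -0.19 to 2.02 in the low-fat mice and from -0.48 through 0.87 to 3.45 in the high-fat mice. Of the high-fat mice 9 of 10 lay above the low-fat median, and the difference was 1.11 (0.15 to 2.04, SD 1.01 and 0.99, limma adjusted p = 0.189). Col4a1 ran from -0.93 through -0.31 to 1.20 and from -1.15 through 0.78 to 3.11. For Col4a1 4 high-fat mice lay above all low-fat mice, with a difference of 0.80 (-0.13 to 1.70, SD 0.77 and 1.19, limma adjusted p = 0.380). Its second probe set gave 1.51 (0.49 to 2.50) with the high-fat mouse higher in 91 of 100 pairs, and missed the threshold over all probe sets (limma adjusted p = 0.0779). After quantile normalisation Col4a2 turned to -0.47 (limma adjusted p = 0.517). The median over the 17325 genes with a value in that setting was -0.41, against 0.04 over all genes in the main fit.

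Col4a1 and Col4a2 lie head to head on chromosome 8, and in RefSeq their first transcripts overlap at the start. The stretch between both starts is chr8:11312805-11312826 (GRCm38.p6), 22 bases. It is shown on the plus strand because it is transcribed in both directions. Transcription toward Col4a2 is on the plus strand and that toward Col4a1 on the minus strand. GC boxes are not capitalised in this stretch, which holds the letters GGGCGG in lower case.
Col4a1 and Col4a2 starts: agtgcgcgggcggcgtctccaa
No correlation between the scores of Col4a1 and Col4a2 was detected over the 20 mice once diet means were removed (r = -0.003, rho = 0.08, permutation p = 0.989, and p = 0.747 for rho). The 95% interval of r, -0.46 to 0.45, leaves room for a moderate correlation in either direction. With the second probe set of Col4a1, tried after seeing the data, r was 0.18 (-0.29 to 0.59, permutation p = 0.423), while the probe sets of Col4a1 had r = 0.78 with each other (permutation p = 0.00018).

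Collagen VI forms beaded filaments around cells and collagen XIV binds to the surface of fibrils. Their 4 genes had higher means on the high-fat diet (3 of 4 after quantile normalisation, with Col6a1 at -0.070) and 0 passed, from 0.33 for Col6a2 (-0.56 to 1.21) through 0.49 for Col6a1 (-0.40 to 1.38) and 0.61 for Col6a3 (-0.29 to 1.50) to 0.77 for Col14a1 (-0.15 to 1.67, SD 1.00 and 1.00, limma adjusted p = 0.401). Col14a1 ran from -1.77 through -0.13 to 2.04 in the low-fat mice and from -1.18 through 1.13 to 1.66 in the high-fat mice. Its median thus differed more than its extremes, and the highest mouse of all was a low-fat mouse.

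The glycoproteins and proteoglycans gave 0 of 9 calls, with 8 of 9 means higher on the high-fat diet. After quantile normalisation 4 of 8 were higher, with Tgfbi at -0.32, Reln at -0.49, Ecm1 at -1.03 and Sparc at -0.25. Tgfbi encodes a secreted adhesion protein induced by transforming growth factor beta. It ran from -1.24 through 0.05 to 1.34 in the low-fat mice and from -0.80 through 1.30 to 2.77 in the high-fat mice. Of the high-fat mice 5 lay above every low-fat mouse, and the difference was 1.15 (0.18 to 2.08, SD 0.81 and 1.16, limma adjusted p = 0.171). The 4 probe sets of Tgfbi, 3 of which carry suffixes for possible cross-hybridisation, lay between 1.15 and 1.35, and 0 passed. Reln encodes reelin, a secreted glycoprotein that marks stellate cells in the liver. Its values ran from -1.56 through 0.01 to 1.76 on the low-fat diet and from -0.56 through 1.02 to 2.47 on the high-fat diet. For Reln 3 high-fat mice lay above all low-fat mice, with a difference of 1.00 (0.05 to 1.92, SD 0.97 and 1.03, limma adjusted p = 0.243). A second probe set of Reln gave 0.23 (-0.66 to 1.10).

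Biglycan and decorin are small proteoglycans that bind collagen and growth factors. Bgn ran from -1.59 through 0.14 to 1.22 and from -0.80 through 0.82 to 2.33, with 4 high-fat mice above all low-fat mice. The difference was 0.91 (-0.03 to 1.82, SD 0.92 and 1.07, limma adjusted p = 0.303), and its 3 probe sets lay between 0.88 and 0.97. Dcn ran from -1.55 through 0.09 to 1.57 and from -0.18 through 0.49 to 2.09, with a difference of 0.68 (-0.23 to 1.58, SD 1.12 and 0.86, limma adjusted p = 0.470). For Dcn 5 high-fat mice lay above and 5 below the low-fat median, and the lowest high-fat mouse lay well above the lowest low-fat mouse. Ecm1, a secreted glycoprotein of hepatocytes and stellate cells, ran from -1.46 through 0.03 to 1.76 and from -0.40 through 0.67 to 2.31. Its groups overlapped, with a difference of 0.78 (-0.14 to 1.68, SD 1.11 and 0.87, limma adjusted p = 0.395).

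Postn encodes periostin, a matricellular protein of remodelling tissue, and ran from -1.74 through -0.01 to 1.83 on the low-fat diet and from -0.71 through 0.68 to 2.29 on the high-fat diet. The difference was 0.63 (-0.28 to 1.52, SD 1.05 and 0.95, limma adjusted p = 0.516). Sparc, a collagen-binding protein, stood at 0.56 (-0.34 to 1.45), and its other probe sets lay on either side of it, at 0.98 and -1.08. Lum, a small proteoglycan of collagen fibrils, stood at 0.25 (-0.63 to 1.13). Fibronectin, which hepatocytes secrete in bulk into plasma, was the gene of this group with a lower mean. Fn1 ran from -1.70 through 0.40 to 1.24 and from -1.63 through -0.14 to 1.06, nearly the same range in both diets, with a difference of -0.10 (-0.98 to 0.78, SD 1.17 and 0.79, limma adjusted p = 0.945).

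**Figure D3:**
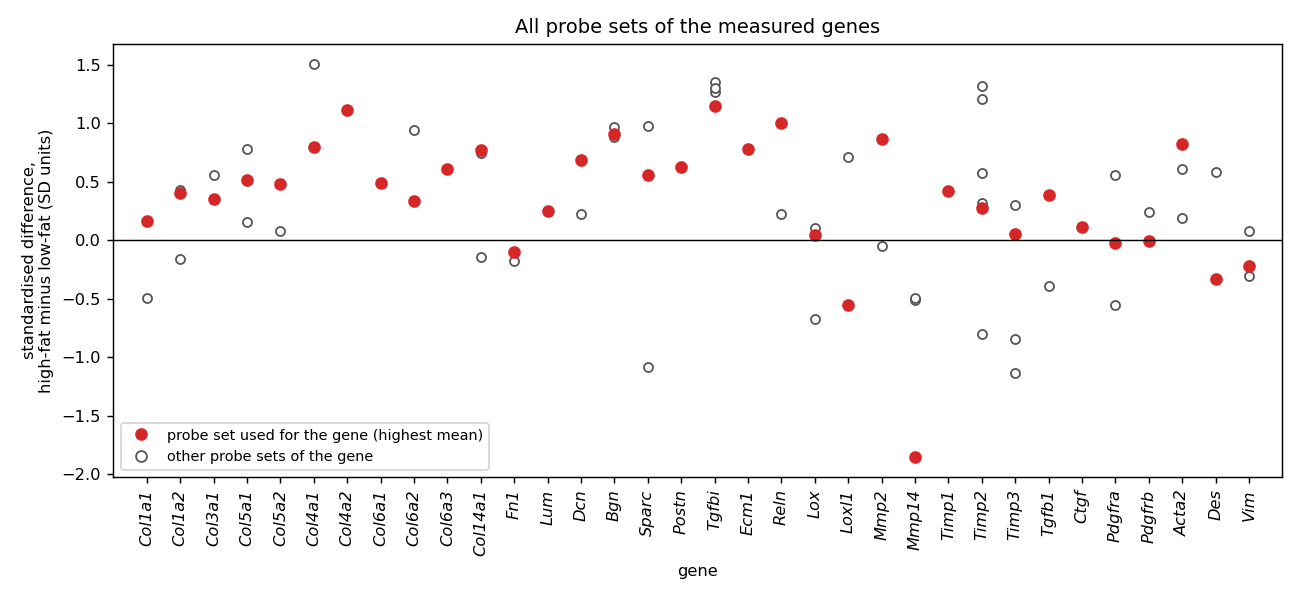
Standardised difference between diets (vertical axis, SD units) for all 78 probe sets of the 34 genes, with the probe set used for each gene filled. The 4 probe sets of Tgfbi lie between 1.15 and 1.35 and the 3 of Bgn between 0.88 and 0.97, whereas those of Timp2, Timp3 and Sparc lie on both sides of 0.

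Of the signals and receptors 0 of 4 passed, and 2 had a higher mean on the high-fat diet. Tgfb1, the transforming growth factor beta of liver scarring, ran from -1.10 through -0.24 to 1.53 in the low-fat mice and from -1.83 through 0.46 to 1.51 in the high-fat mice. The upper ends of the groups were alike, while the lowest value, of high-fat replicate 6, lay far below the next high-fat mouse at -0.23. The difference was 0.39 (-0.50 to 1.27, SD 1.00 and 0.99, limma adjusted p = 0.729), with 0.74 without that mouse (limma adjusted p = 0.464) and -0.39 from a second probe set. Ctgf, a matricellular target of that factor, ran from -1.54 through -0.04 to 1.33 and from -2.10 through 0.40 to 1.43, with a difference of 0.11 (-0.77 to 0.99, SD 0.98 and 1.02, limma adjusted p = 0.936). Pdgfrb, the receptor by which stellate cells sense platelet-derived growth factor, ran from -1.88 through -0.10 to 1.68 and from -1.25 through 0.08 to 1.38. Its means differed by -0.01 SD (-0.88 to 0.87, SD 1.21 and 0.73, limma adjusted p = 0.997), and those of the related receptor gene Pdgfra by -0.02 SD (-0.90 to 0.86).

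Of the cytoskeletal genes, Acta2 encodes smooth muscle actin, the usual mark of activated stellate cells. It ran from -0.94 through -0.36 to 1.27 on the low-fat diet and from -0.85 through 0.92 to 2.25 on the high-fat diet. For Acta2 4 high-fat mice lay above all low-fat mice, with a difference of 0.82 (-0.10 to 1.73, SD 0.87 and 1.12, limma adjusted p = 0.361). Desmin is a filament of stellate and muscle cells, and its 2 probe sets pointed in opposite directions. With the probe set used, Des ran from -1.87 through -0.07 to 1.62 and from -2.06 through -0.14 to 0.75, with a difference of -0.33 (-1.21 to 0.56, SD 1.00 and 1.00, limma adjusted p = 0.772). The other probe set of Des gave 0.58 (-0.32 to 1.47), and the mean of both gave 0.19. Vim, the vimentin of mesenchymal cells, stood at -0.22 (-1.09 to 0.67).

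Over all probe sets of the set, 26 genes had more than 1 probe set, and these shared a direction for 12 genes, 10 higher and 2 lower (Fn1 and Mmp14). For the other 14 the probe sets pointed both ways. Of the 78 probe sets 56 were higher on the high-fat diet, 14 had an unadjusted p of at most 0.05, and 1, the probe set used for Mmp14, passed when adjusted over all probe sets. Over all 18193 genes, with 1 probe set each, 52.5% were higher and 17.0% had such an unadjusted p. Shares over all probe sets were not computed.

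The scores of many of these genes varied together between mice of one diet. With diet means removed, the median Pearson r over the 561 pairs of the 34 genes was 0.21, against 0.002 over all pairs of the 18193 genes, and r was at least 0.5 in 29.8% of the pairs against 4.04%. These are descriptions: the genes share arrays and livers. After centring each array on the median of all standardised genes the median was 0.20. Sparc, Col1a2, Col3a1, Lum, Tgfbi and Col6a3 had the highest median r with the other genes, 0.56 to 0.63. The closest pair was Col1a2 and Lum (r = 0.94). Dcn and Ecm1 (r = 0.89) and Bgn and Reln (r = 0.90) were also close. Mmp14 had the lowest median r with the rest (-0.13), and Lox, Timp3, Ctgf, Pdgfra, Pdgfrb, Tgfb1 and Des also had medians below 0.

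**Figure D4:**
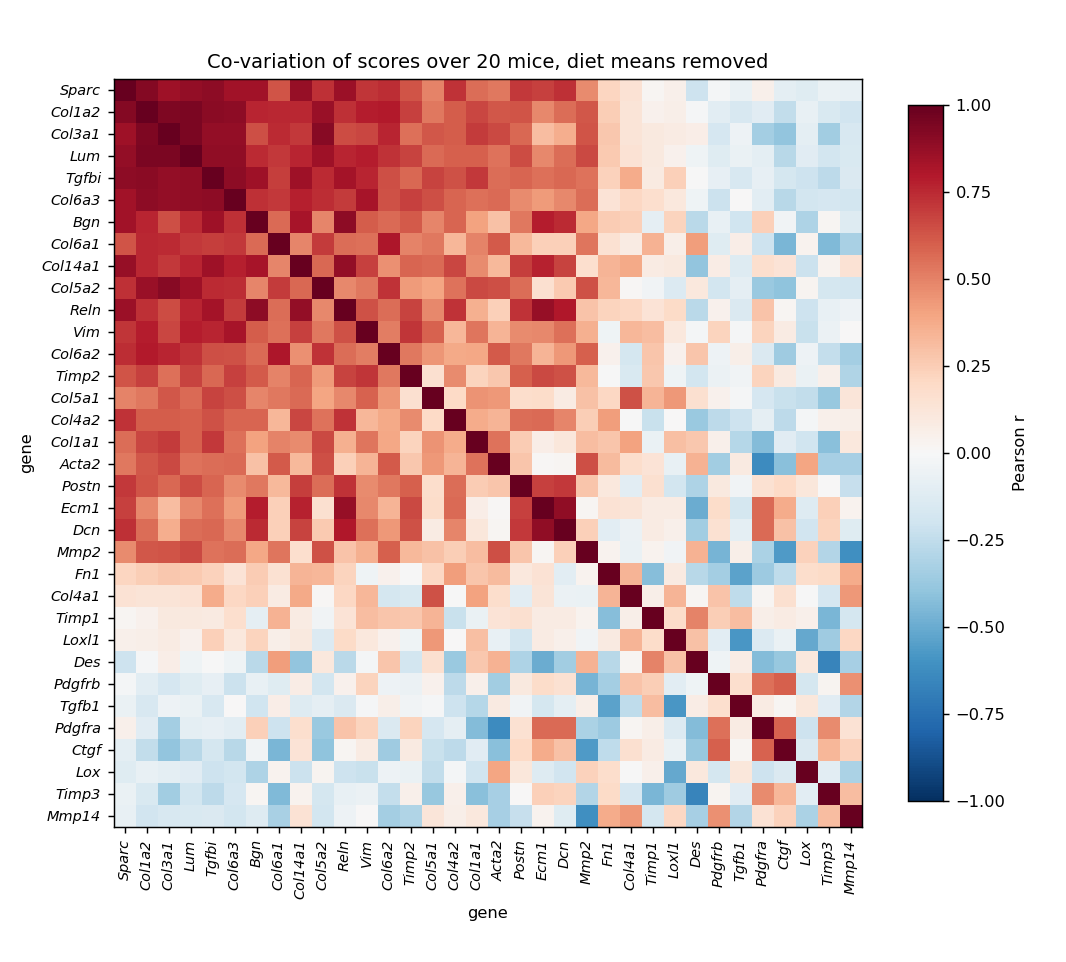
Pearson r between the scores of each pair of the 34 genes over 20 mice after diet means were removed (colour scale -1 to 1), ordered by median r. Sparc, Col1a2, Col3a1, Lum, Tgfbi and Col6a3 form a block of high r at the upper left, and Mmp14 stands at the other end.

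For 10 pairs of subunits or partners, r and rho over the 20 mice were tested by permuting mice within diets (two-sided, 100000 permutations), with p-values adjusted over the 10 pairs. By r, 7 pairs passed. Col6a1 and Col6a2, partner chains of collagen VI, gave r = 0.81 and rho = 0.82 (raw permutation p = 8e-05 and 4e-05, adjusted p = 0.0008 and 0.0004), and r = 0.71 without the 2 mice farthest from the median of Col6a1. Col6a1 and Col6a3 gave r = 0.71 and rho = 0.62 (raw permutation p = 0.00226 and 0.00692, adjusted p = 0.00565 and 0.0138), but r was 0.25 in the low-fat and 0.85 in the high-fat mice. Without the 2 farthest mice their r was 0.47. Col6a2 and Col6a3 gave r = 0.64 and rho = 0.68 (raw permutation p = 0.00744 and 0.00257, adjusted p = 0.0141 and 0.00642), and r = 0.64 without 2 mice.

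Both chains of type I collagen varied together, with r = 0.66 and rho = 0.66 for Col1a1 and Col1a2 (raw permutation p = 0.00137 and 0.00217, adjusted p = 0.00457 and 0.00642). Their r was 0.61 without 2 mice. Each was closer to some other genes of the set, such as Col1a2 to Lum (r = 0.94) and Col1a1 to Tgfbi (r = 0.71). The tests of the 10 pairs compare r with 0 and not with the r of other pairs. Col1a1 and Col3a1 gave r = 0.70 and rho = 0.72 (raw permutation p = 0.00063 and 0.00043, adjusted p = 0.00315 and 0.00215), with r = 0.84 in the low-fat and 0.64 in the high-fat mice and 0.66 without 2 mice. Dcn and Lum gave r = 0.56 and rho = 0.52 (raw permutation p = 0.00848 and 0.0118, adjusted p = 0.0141 and 0.0197), and r = 0.48 without 2 mice. Pdgfra and Pdgfrb gave r = 0.55 (raw permutation p = 0.0279, adjusted p = 0.0399) and rho = 0.50 (raw permutation p = 0.0438, adjusted p = 0.0626, not past the threshold), and r = 0.54 without 2 mice. Besides Col4a1 and Col4a2 (adjusted p = 0.989, permutation), the pairs that did not pass were Col5a1 and Col5a2 (r = 0.39, rho = 0.44, adjusted permutation p = 0.123 and 0.0711; r = 0.56 without 2 mice) and Acta2 and Des (r = 0.35, rho = 0.21, adjusted permutation p = 0.164 and 0.408; r = 0.29 without 2 mice). For the type I collagen pair r was 0.54 in the low-fat and 0.79 in the high-fat mice. In quantile-normalised data 0 of the 10 pairs passed, without probe sets that carry cross-hybridisation suffixes 3 passed, and with scores averaged over the probe sets of each gene 4 passed.

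Single mice stood out across many of the genes. Low-fat replicate 2 was the lowest of its diet for 16 of 34 genes and replicate 4 the highest for 13, and high-fat replicate 9 was the lowest of its diet for 15 and replicate 5 the highest for 12. The mean standardised score over the 34 genes ran from -0.82 to 0.82 in the low-fat mice and from -0.49 to 1.03 in the high-fat mice. For the same 4 mice in that order, the mean over 15 other stellate cell markers was -0.86, 0.85, -0.48 and 1.46, that over 15 endothelial markers -0.95, 0.31, -0.16 and 0.38, that over 12 Kupffer cell and macrophage markers -0.68, 0.32, -1.16 and 0.20, and that over 9 hepatocyte markers 0.42, -0.15, 0.48 and -1.26. Over 14 smooth muscle and portal fibroblast markers it was -0.01, 0.08, -0.54 and 1.23, and over 6 bile duct markers -0.99, -0.21, -0.67 and 0.47. Over 4 adipocyte markers it was -0.33, 0.27, 0.45 and -0.26, and over 6 blood cell markers -0.35, 0.03, -0.70 and 0.18. The part of these 4 mice in the results was not tested.

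In the wider marker lists 2 of 81 measured genes passed (2.47%), near the 3.49% of all genes. Of 15 other stellate cell markers, such as the retinol esterifying enzyme gene Lrat, 0 passed, 13 had a higher mean on the high-fat diet and the median standardised difference was 0.67. Their mean per mouse ran from -0.86 to 0.85 in the low-fat and from -0.48 to 1.46 in the high-fat mice. Of 14 smooth muscle and portal fibroblast markers, 7 were higher and 1 fell, Entpd2, an ectonucleotidase of portal fibroblasts (-1.74, limma adjusted p = 0.0323). The Entpd2 call was lost on removing replicate 6, 8 or 9 of the low-fat mice, or 1, 4, 8, 9 or 10 of the high-fat mice (limma adjusted p from 0.00573 to 0.0597). It was also lost by the Wilcoxon test (adjusted exact p = 0.0575), with the replicate number as a block (limma adjusted p = 0.103) and after quantile normalisation, where it stood at -0.11 (limma adjusted p = 0.901). Their mean per mouse ran from -0.62 to 0.64 and from -0.65 to 1.23. Of 15 endothelial markers 0 passed and 9 were higher, with mean scores per mouse from -0.95 to 0.94 and from -0.25 to 0.55. Of 12 Kupffer cell and macrophage markers 0 passed and 5 were higher, with ranges of -0.68 to 1.42 and -1.16 to 2.07. Of 6 bile duct markers 1 rose, the keratin gene Krt23 (2.09, limma adjusted p = 0.0112), and 2 were higher. With the poly-A controls as a covariate Krt23 missed the threshold (1.84, limma adjusted p = 0.0536). None of the 4 adipocyte, 6 blood cell or 9 hepatocyte markers passed by limma.

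Of the other genes of the matrix pathways 2 of 98 passed (2.04%), also near the share of all genes. In collagen folding and processing, 1 of 18 rose, Ppib, a prolyl isomerase of the endoplasmic reticulum that folds procollagen and other secreted proteins, and 12 had higher means (list median 0.28). All 10 high-fat mice lay above all 10 low-fat mice for Ppib, with a standardised difference of 3.00 (limma adjusted p = 0.000899). The share of all genes whose diets did not overlap is not given here. Among other basement membrane genes 1 of 20 fell, Agrn, the proteoglycan agrin (-1.63, limma adjusted p = 0.0449), and 6 were higher (list median -0.25). The Agrn call was lost when any 1 of 16 of the 20 mice was left out (limma adjusted p from 0.0149 to 0.0789), and held on removing replicate 2 or 3 of the low-fat mice, or 2 or 5 of the high-fat mice. Agrn stood at -0.97 with averaged probe sets (limma adjusted p = 0.272) and at -0.78 after quantile normalisation (limma adjusted p = 0.257). Its call was also lost without moderation, with array weights, with all probe sets adjusted and by the Wilcoxon test (adjusted p from 0.0533 to 0.0695, exact for Wilcoxon). Of 21 other fibrillar and matrix proteins 0 passed (15 higher, median 0.12), of 17 other proteases and inhibitors 0 passed (12 higher, median 0.29), and of 22 further genes of transforming growth factor beta and platelet-derived growth factor signalling 0 passed (8 higher, median -0.15). The median over all genes was 0.04.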

How the data were processed

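RNA of 20 livers, 1 array per mouse and 10 mice per diet, was labelled by the Affymetrix 3′ biotin protocol, per the labels' protocols. The deposited values are a score per probe set from the authors, on a level like log2 intensity but with differences compressed by an amount that varies between probe sets (median SD over arrays 1.17e-05). How probe signals were summarised is not stated in the labels, so the precision rests on the number of arrays. The labels call the arrays biological replicates. Of 45037 probe sets besides 64 controls, 34945 carried 1 gene symbol, 932 several and 9160 none, and 34741 of the former matched RefSeq genes (GRCm38.p6) by gene identifier.

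The probe set with the highest mean stood for each of 18193 genes. The diet effect was fitted in R 4.3.3 by limma 3.58.1, using lmFit and eBayes, with Benjamini-Hochberg adjustment over all genes and a threshold of 0.05, and the fit was tested on simulated data. Intervals are 95% noncentral t intervals of the standardised difference. Co-variation was tested by 100000 permutations within diets in Python 3.11.15. The members and lists were chosen with earlier results of these data known. Named in full were the 12 genes with the smallest p and a fixed list of collagens, signals and stellate cell markers, and list genes were named where they passed, beside Lrat as an example. Alternatives covered normalisation, centring, filters, variance settings, array weights, the replicate block, the choice of probe sets, a rank test and leaving out each mouse. No batch was given in the labels.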

Additional observations from a re-analysis of the deposited data

Results flagged for a closer look

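In Tgfb1, the transforming growth factor beta gene, high-fat replicate 6 was far below the other mice of its diet. Its gap to the next mouse was 0.48 of the range of the 10 high-fat mice, above the limit of 0.466 for 10 samples. It was 1 such case among 68 groups of 10 (34 genes in each diet), where chance gives about 1 in 20. Without that mouse the standardised difference of Tgfb1 was 0.74 (limma adjusted p = 0.464), against 0.39 with it. The mean score of Tgfb1, 6.564, lay just below the median of all probe sets.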

How the results depend on the processing

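The count of genes of the set past the threshold, 1, became 2 after quantile normalisation (Lox -2.90 and Loxl1 -1.47, limma adjusted p = 0.00105 and 0.0469) and 0 with averaged probe sets or with the poly-A covariate, which was added after seeing the data. It stayed at 1 without any 1 mouse. The 2 calls among matrix pathway genes became 8 after quantile normalisation, 7 after centring, 4 with averaged probe sets and 1 without moderation, with array weights, with all probe sets adjusted or by the Wilcoxon test, and 1 to 3 without 1 mouse. With the upper part of genes by mean, and with the poly-A covariate, 2 matrix pathway genes were called higher and 1 lower. The 7 co-varying pairs became 0 (quantile), 3 (suffixes left out) and 4 (averaged probe sets), and 6 to 7 without 1 mouse. In quantile-normalised data the median standardised difference was -0.14 in the set and -0.41 over the 17325 genes with a value. Directions turned after quantile normalisation for Col1a1 -1.20, Col1a2 -0.14, Col5a1 -1.15, Col4a2 -0.47, Col6a1 -0.070, Sparc -0.25, Tgfbi -0.32, Ecm1 -1.03, Reln -0.49, Lox -2.90, Timp1 -0.26, Timp2 -0.082, Timp3 -0.26 and Tgfb1 -0.97. They turned after centring for Lox -0.00057, with array weights for Fn1 0.022, Lox -0.00041 and Pdgfrb 0.043, and without suffixes for Vim 0.075. Averaged probe sets turned Col1a1 -0.22, Lox -0.33, Loxl1 0.11, Timp3 -0.50, Tgfb1 -0.00037, Pdgfrb 0.16 and Des 0.19, and the poly-A covariate turned Lum -0.0012, Lox -0.068, Timp2 -0.21 and Pdgfrb 0.012. By pairings Pdgfrb stood at 52 and Vim at 51 of 100. Without 1 mouse the ranges crossed 0 for Ctgf -0.063 to 0.41, Fn1 -0.31 to 0.069, Lox -0.12 to 0.22, Pdgfra -0.27 to 0.20, Pdgfrb -0.24 to 0.19, Timp3 -0.11 to 0.29 and Vim -0.35 to 0.016. The cause was not tested. Replicate numbers did not pair the mice (r from -0.16 to 0.26 for same-numbered mice, 1 of 10 closest to its own number). With the number as a replicate block Mmp14 had a limma adjusted p of 0.0398, 1 gene of the set and 2 pathway genes passed, and calls over all genes went from 635 to 421. Over all 18193 genes 1344 passed after centring and 411 with the poly-A covariate. After quantile normalisation 1488 of 17325 genes passed, since genes whose score no longer varied between arrays were left out. The filter on the upper part of genes by mean left 26 genes of the set, and Fn1 and Col6a2 had no value after quantile normalisation and without suffixes.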
